A study of Mus musculus with 32 samples.

Results

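RNA was sequenced from 3T3-L1 cells on day 3 of adipogenic differentiation, with and without a knockdown of Zbtb9. These 8 libraries, out of 32 in the series, were chosen by the day and the hairpin given in the sample labels and by no measured value. 3T3-L1 is an established line of mouse preadipocytes, cells that fill with lipid when hormones are given. The 4 knockdown libraries came from cells with a short hairpin RNA (shRNA) against Zbtb9, 2 libraries from shRNA 1 and 2 from shRNA 2, with the genotype label Zbtb9 knockdown. The 4 control libraries came from cells with a scramble hairpin, shCtrl, with the genotype label WT. All 8 had the cell type label premature adipocyte. Both arms had been induced on day 0, 2 days after confluence, with insulin (167 nM), the phosphodiesterase inhibitor 3-isobutyl-1-methylxanthine (0.5 mM) and dexamethasone (1 μM). On day 3 the protocol changes the medium to one with 167 nM insulin, and the labels do not say on which side of that change the day 3 RNA was taken. The sample titles call the replicates biological (bio rep). The labels do not say whether these were separate cultures, or whether the hairpin cells were clones or pools. The p-values thus measure only the spread between these libraries, whose source is not given. The other 24 libraries had the same arms on days 0, 7 and 11, 8 a day.

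In this system the glucocorticoid dexamethasone and the cyclic AMP signal kept up by the methylxanthine bring on the early factors C/EBPβ and C/EBPδ, which in turn switch on PPARγ and C/EBPα. The cells divide again before they leave the cell cycle, and the genes for taking up fatty acids, building triglyceride and coating lipid droplets then come on under PPARγ and C/EBPα. Zbtb9 encodes a protein with a BTB domain and zinc fingers, a family with many transcription regulators.

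The sequences upstream of 5 genes described below are shown first. Adgrf5 and Cidec are among the 10 with the largest rises at day 3, Rgs4 had the largest fall on the deposited log2 scale, and Mki67 and Mcm5 are genes of dividing cells. The rise of Mcm5 was small, at 0.19 on the log2 scale, and its window is shown for its motifs. Each line holds the 250 bases before a RefSeq start in build GRCm38.p6, 5′ to 3′ on the gene's own strand. The windows are chr17:43389216-43389465 on the plus strand for Adgrf5, chr6:113434765-113435014 on the minus strand for Cidec, chr1:169747643-169747892 on the minus strand for Rgs4, chr7:135716380-135716629 on the minus strand for Mki67 and chr8:75109259-75109508 on the plus strand for Mcm5. Capitals mark matches on either strand to TTNNGCAA, a motif of C/EBP factors, to CCAAT, the box bound by NF-Y, and to TTTGGCGC, a motif of E2F factors. Adgrf5 and Cidec each have another annotated start, whose upstream window held no match.
Adgrf5: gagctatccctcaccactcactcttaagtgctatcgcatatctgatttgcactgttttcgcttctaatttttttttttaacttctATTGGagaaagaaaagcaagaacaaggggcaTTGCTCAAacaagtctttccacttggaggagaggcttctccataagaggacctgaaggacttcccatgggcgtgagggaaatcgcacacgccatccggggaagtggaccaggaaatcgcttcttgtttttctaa
Cidec: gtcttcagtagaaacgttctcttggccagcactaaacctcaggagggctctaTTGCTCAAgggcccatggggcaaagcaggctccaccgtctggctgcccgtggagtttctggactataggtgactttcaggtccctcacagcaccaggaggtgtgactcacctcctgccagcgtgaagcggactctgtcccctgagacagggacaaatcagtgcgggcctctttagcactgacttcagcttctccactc
Rgs4: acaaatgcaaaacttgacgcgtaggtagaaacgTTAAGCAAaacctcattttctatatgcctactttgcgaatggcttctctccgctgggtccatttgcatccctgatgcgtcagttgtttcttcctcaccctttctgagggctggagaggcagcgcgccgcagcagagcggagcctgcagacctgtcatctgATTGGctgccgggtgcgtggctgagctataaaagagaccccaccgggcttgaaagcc
Mki67: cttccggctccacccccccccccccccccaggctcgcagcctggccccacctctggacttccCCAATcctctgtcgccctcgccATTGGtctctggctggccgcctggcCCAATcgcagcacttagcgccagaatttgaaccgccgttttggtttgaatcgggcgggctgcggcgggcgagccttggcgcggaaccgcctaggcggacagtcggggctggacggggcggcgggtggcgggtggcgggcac
Mcm5: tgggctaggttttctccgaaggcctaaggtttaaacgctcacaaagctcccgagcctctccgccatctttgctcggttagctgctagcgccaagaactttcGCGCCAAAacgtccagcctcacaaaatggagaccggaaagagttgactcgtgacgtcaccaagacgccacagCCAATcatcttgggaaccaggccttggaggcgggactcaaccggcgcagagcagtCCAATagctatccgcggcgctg

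The C/EBP motif stood 134 bases before the start of Adgrf5, 198 before that of Cidec and 217 before that of Rgs4. CCAAT stood 3 times upstream of Mki67, at 188, 166 and 141 bases, and 2 times upstream of Mcm5, at 77 and 22 bases, where TTTGGCGC stood at 149. Among all 12592 upstream windows of genes tested at day 3, 7.35% held TTNNGCAA, 35.8% CCAAT, 0.754% TTTGGCGC and 1.7% TTTCCCGC, another E2F motif. These are matches of letters, and no binding was measured here.

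Rebuilt read totals in genes were 23640983 to 27026632 in knockdown and 25316223 to 25839213 in control libraries, so depth overlapped between the arms. On the first principal component, with 47% of the variance, control libraries lay from -13.88 to -12.36, shRNA 2 libraries at 8.79 and 9.23, and shRNA 1 libraries at 16.58 and 17.24. The second, with 21.3%, separated the hairpins, at 10.09 and 10.74 for shRNA 1 and -15.77 and -12.54 for shRNA 2. On the third, with 7.24%, the shRNA 2 replicates lay apart at 8.03 and -6.65, and control replicate 2 at -7.87 while the other controls lay from 1.68 to 3.5. Replicates of shRNA 2 also differed most, with a chi-square per degree of freedom of 6.28 beside 3.36 to 4.82 for the other pairs. The summed normalized reads of 7 adipocyte markers were 39670 to 52696 in knockdown and 24028 to 29153 in control libraries, while those of the 9 fibroblast and preadipocyte markers in the table were 98930 to 145656 and 118450 to 133986. Markers of other cells were low, with macrophage sums of 478 to 633 in knockdown and 663 to 739 in control libraries (Ptprc at 0, and Cd14 the only 1 of 4 tested called, lower), endothelial sums of 9.88 to 17 and 16.9 to 40.8, and epithelial sums of 20 to 40.2 and 8.5 to 13.6, with Krt19, the only one tested, called higher. With 1 library left out, 1 to 2 of the macrophage markers were called lower. Sums of 6 bone markers were 680 to 814 against 453 to 550, with 2 tested and only Alpl called, higher. Those of 5 cartilage markers were 1667 to 1927 against 2357 to 2526, with Sox9 the only one tested, called lower. Too few of these markers passed the filter for the sums to speak for a cell type. The skeletal muscle sums, 87.4 to 161 and 104 to 133, overlapped. The part of these cells in the results below was not tested, and in bulk RNA fewer cells of a type and less RNA per cell cannot be told apart.

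Zbtb9 (ENSMUSG00000079605), the targeted gene, is annotated in GRCm38 on the plus strand of chromosome 17, from base 26973167 to base 27008376. At day 3 it was covered by 0 and 7 reads in the shRNA 1 libraries, 9 and 4 in the shRNA 2 libraries, and 12, 6, 12 and 9 in the controls. The arms overlapped, since control replicate 2 lay below 2 knockdown libraries. The summed reads were 20 in knockdown and 39 in control, and the exact permutation test, two-sided, gave p = 0.114 where the smallest possible is 0.0286. A difference was thus not detected at day 3, and the gene was under the filter of the test across all genes. With 1 library left out, no test of 4 against 3 can give less than 0.0571. That value was reached without control replicate 2, where the arms no longer overlapped, and without each of the others the exact p was 0.114 to 0.229. Of its 3482 exon bases, 84.4% are also exon of Gm50253 on the same strand, so reads of the transcript can have been lost in counting.

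Across the transcriptome, 13139 genes were tested at day 3 and 3506 of them, 26.7%, were called, here and below at an adjusted p under 0.05 by limma with Benjamini-Hochberg adjustment. Of all tested genes 1918, or 14.6%, were higher in knockdown and 1588, or 12.1%, were lower. Most differences were small. A log2 difference of at least 1 was reached by 36 genes that rose and 6 that fell, and one of at least 0.5 by 184 and 220. Differences are log2 knockdown minus control on the deposited scale, with their standard error (SE), and that scale draws genes with few reads towards their mean. The ratios given as folds are ratios of mean normalized reads, which are not drawn in.

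The 4 knockdown libraries did not overlap the 4 controls for 3088 of the calls, 88.1%. Among all tested genes, 15.5% had every knockdown library above every control and 12.8% had every one below. The pooled test takes spread between hairpins as error and so hardly calls a gene whose hairpins disagree. Taken alone against the same 4 controls, shRNA 1 was called higher for 20.6% and lower for 18.7% of all tested genes, and shRNA 2 for 16.8% and 14.5%. In the test between the hairpins 10.6% were higher with shRNA 2 and 8.94% lower. The counts of list members below are to be read against the shares of all tested genes in the same comparison, which for the pooled test are the 14.6% higher and 12.1% lower. Tested against each other, the hairpins differed for 731 calls, 20.8%, close to the 19.6% of all tested genes. The share was 16.8% of the genes that rose and 25.7% of those that fell. When the hairpins were fitted as separate groups and then averaged, 5311 genes were called. In that fit the spread between the hairpins does not count as error.

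**Figure D1:**
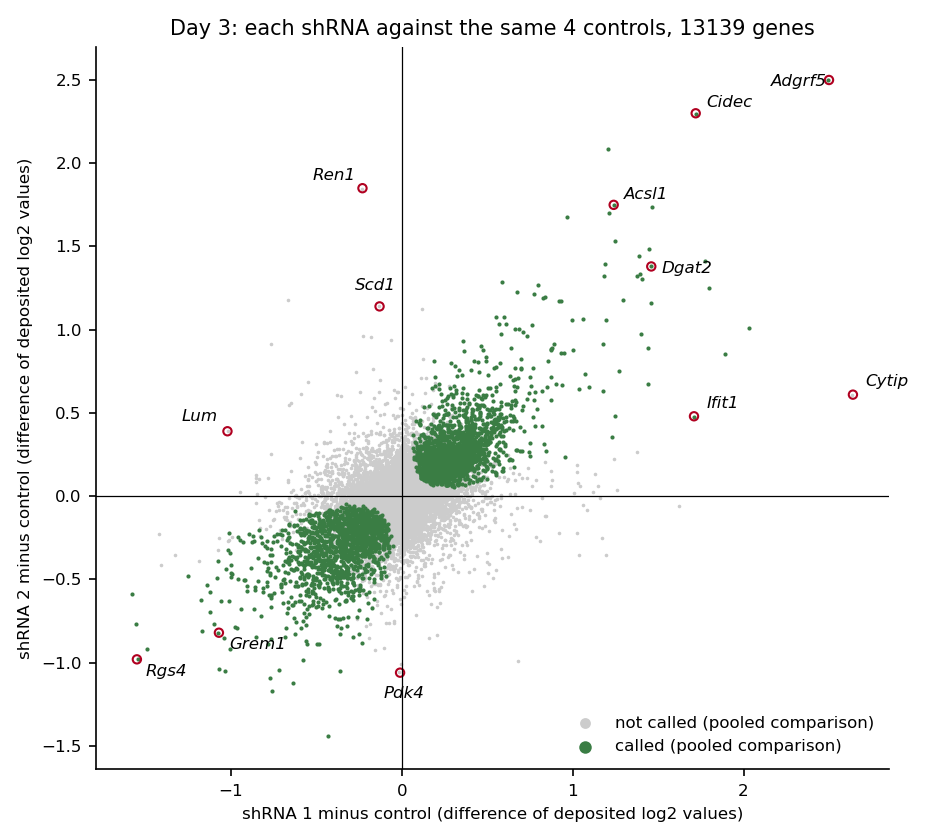
Log2 difference from control at day 3 for shRNA 1 (x axis) and shRNA 2 (y axis), 1 point for each of 13139 genes, green where the pooled comparison called the gene; both axes use the same 4 control libraries. The green points lie to the lower left and upper right of the origin, with Adgrf5 at 2.50 on both axes, while Ren1, Scd1, Pdk4, Lum and Cytip lie off the diagonal.

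Among the 10 largest rises were genes of fat storage and genes with no place in the lists. Adgrf5, an adhesion G protein-coupled receptor, had 201 and 164 normalized reads with shRNA 1, 160 and 208 with shRNA 2, and 22.1, 9.52, 26.2 and 13.8 in controls; below, the libraries stand in this order. Every knockdown library was above every control, which the rule for naming these 10 genes required. The rise was 10.2-fold on the means of 183 ± 24.6 and 17.9 ± 7.59 (SD, n = 4), and the log2 difference was 2.50 ± 0.15 (SE, limma adjusted p 1.05e-07). Cidec, a droplet protein that drives the growth of lipid droplets, had 643, 511, 737 and 1029 in knockdown and 160, 165, 165 and 144 in control. Its rise of 4.61-fold was uneven, with shRNA 2 above shRNA 1 by 0.58 (limma adjusted p 0.00101). Scd3, a fatty acid desaturase, had 53.4, 65.6, 64 and 91.1 against 10.5, 4.23, 15.7 and 8.5, which is 7.04-fold. Trf, which encodes the iron carrier transferrin, had 186, 215, 147 and 146 against 22.1, 50.8, 48.1 and 37.2, a 4.39-fold rise whose size is uncertain because 63.5% of its exon bases are shared with another gene on the same strand.

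Gpd1 and Acsl1, genes of triglyceride synthesis and of fatty acid uptake given with those lists below, were also among the 10. The other 4 were outside the lists of fat storage. Alpl, the alkaline phosphatase also used as a bone marker, had 217, 296, 256 and 265 against 78.9, 79.3, 80.6 and 74.4, a 3.3-fold rise. Its hairpins lay at 1.45 and 1.48 on the log2 scale. Fgl2, a fibrinogen-like protein, had 731, 759, 373 and 299 against 121, 173, 160 and 142. For Fgl2 the order of the hairpins was turned, with shRNA 2 below shRNA 1 by 1.02 and both above control. H19, an imprinted long non-coding RNA, had 706, 533, 851 and 931 against 220, 236, 254 and 257, and Fam83a 468, 539, 271 and 408 against 118, 109, 129 and 154. Both were more than 3-fold higher on the means, at 3.12 and 3.31.

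The largest fall on the deposited log2 scale was that of Rgs4, a protein that shortens signals of G protein-coupled receptors. It had 136, 135, 234 and 198 normalized reads in knockdown and 491, 432, 457 and 446 in control, 38.5% of control on the means of 176 ± 48.4 and 457 ± 25.4 (SD, n = 4). The log2 difference was -1.26 ± 0.14 (SE, limma adjusted p 4.87e-05), deeper with shRNA 1 at -1.55 than with shRNA 2 at -0.98 (difference 0.57, limma adjusted p 0.000302). Pik3r5, the regulatory subunit of a phosphoinositide 3-kinase activated by G proteins, fell to 45.6% of control, with 350, 418, 410 and 376 against 847, 802, 844 and 911 and the hairpins at -1.07 and -1.04. The matrix metalloproteinases Mmp9 and Mmp3 fell too. Mmp9 had 92, 68.8, 69.9 and 88.9 against 197, 216, 176 and 182, and Mmp3 had 139, 125, 204 and 152 against 337, 325, 302 and 359. Rasgrp3, an exchange factor that activates Ras and Rap, fell to 38.2% of control, the carboxylesterase Ces1f to 49.7% and the aldehyde oxidase Aox1 to 46.9%. Steap4, a metalloreductase of the plasma membrane, had 81.8, 79.4, 183 and 136 against 239, 265, 324 and 340. Cp, which encodes the copper protein ceruloplasmin, had 2202, 1758, 4183 and 3829 against 5906, 5979, 6405 and 6159. Its call (limma adjusted p 0.0324) was lost without any 1 of the 4 controls or without shRNA 1 replicate 1, with adjusted p of 0.016 to 0.0823 over the 8 fits. Of the 10 genes with the largest falls 8 had upstream windows, 10 in all, of which 5 held the C/EBP motif and 4 CCAAT, beside 7.35% and 35.8% of all windows. For the 10 largest rises, 6 genes had 10 windows, of which 2 held each motif.

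Of 11 tested genes of triglyceride synthesis 6 rose, and the median log2 difference was 0.41 beside 0.00 over all tested genes. Gpat3, which adds the first fatty acid to glycerol 3-phosphate, had 3924, 4104, 3489 and 4284 normalized reads against 1522, 1491, 1466 and 1471. It rose 2.66-fold (log2 difference 1.35 ± 0.06, SE, limma adjusted p 5.92e-09), the hairpins lying at 1.37 and 1.32. Dgat2, which makes the last step to triglyceride, had 8752, 9034, 7400 and 9584 against 3082, 3188, 3216 and 3019, a 2.78-fold rise with no overlap. Dgat1, the other enzyme of that step, had 2667, 2872, 2792 and 3079 against 2103, 1773, 1834 and 1866, a 1.51-fold rise. Gpd1, which supplies glycerol 3-phosphate, was the most scattered, with 154, 82.5, 153 and 333 against 40, 37, 27.2 and 46.8. Lpin1, the phosphatidate phosphatase, rose 1.61-fold and Agpat2, the acyltransferase of the second step, 1.35-fold. The antisense gene 4930458D05Rik covers 30% of the exon bases of Gpat3, and the strand use of the counting is not given in the sources used here.

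Droplet and lipolysis genes were counted next. Of 10 tested droplet genes 6 rose and 1 fell (median 0.23), and of 11 lipolysis genes 7 rose (median 0.30). Plin1, the coat protein of adipocyte droplets, had 416, 521, 313 and 468 against 217, 175, 208 and 174, a 2.22-fold rise. Plin2, the coat protein of many cell types, rose only 1.19-fold, with 7873, 8604, 7193 and 7841 against 7093, 6353, 6855 and 6106. Plin3, another general droplet coat, was the member that fell, to 81.4% of control. Among lipolysis genes, the lipase Lipe had 3365, 3967, 4358 and 5413 against 2615, 2304, 2318 and 2419, a 1.77-fold rise. G0s2, an inhibitor of the lipase Pnpla2, rose 2.79-fold, with 290, 332, 228 and 270 against 118, 103, 84.8 and 96.7. Pnpla2 itself rose 1.28-fold, and its coactivator Abhd5 1.16-fold. Hcar2, a receptor that lowers cyclic AMP and so holds lipolysis back, had 35.2, 45.5, 33 and 37.3 against 11.6, 5.29, 8.37 and 7.44, a 4.62-fold rise.

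For uptake and binding of fatty acids, 6 of 13 tested genes rose and 2 fell (median 0.15). Fabp5, a fatty acid carrier of the cytosol, had 11039, 11396, 12133 and 13818 against 5198, 4638, 4638 and 4665, a 2.53-fold rise (log2 difference 1.29 ± 0.06, SE, limma adjusted p 4.46e-08). Cd36, the fatty acid translocase, had 2274, 2235, 3492 and 4020 against 1130, 1062, 1246 and 1055. With shRNA 2 it stood 0.71 above shRNA 1 on the log2 scale (limma adjusted p 3.2e-09), and both were above control. Acsl1, which activates fatty acids to acyl-CoA, rose 2.97-fold, with 15262, 16309, 20199 and 25424 against 7143, 6199, 6514 and 6175. Fabp4 rose 1.9-fold and the lipoprotein lipase gene Lpl 1.73-fold. Slc27a1, a fatty acid transporter, went the other way, with 549, 527, 546 and 470 against 746, 779, 686 and 766.

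Of 14 tested genes of fatty acid synthesis 2 rose, among them Me1, which supplies NADPH, with 3717, 4141, 3925 and 4172 against 2497, 2497, 2385 and 2380 (1.63-fold; processed copies of the gene make its counting uncertain). With shRNA 2 alone 7 rose and 1 fell, and with shRNA 1 alone 3 rose and 1 fell, beside 16.8% higher and 14.5% lower over all tested genes for shRNA 2 and 20.6% and 18.7% for shRNA 1. Scd1, the main stearoyl-CoA desaturase, had 6044 and 6470 with shRNA 1, 14127 and 17090 with shRNA 2, and 7196, 6549, 6905 and 6882 in control. It was 1.14 above control with shRNA 2 and at -0.13 with shRNA 1 (limma adjusted p 0.0747), and the pooled difference of 0.50 ± 0.36 (SE) gave a limma adjusted p of 0.357. Scd2 had the same order, at -0.25 with shRNA 1 and 0.36 with shRNA 2. Fasn, the fatty acid synthase, was at -0.04 with shRNA 1 (limma adjusted p 0.412) and 0.23 with shRNA 2 (limma adjusted p 2.3e-05). Tested between the hairpins, 5 of the 14 genes were higher with shRNA 2 and 1 was lower.

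**Figure D2:**
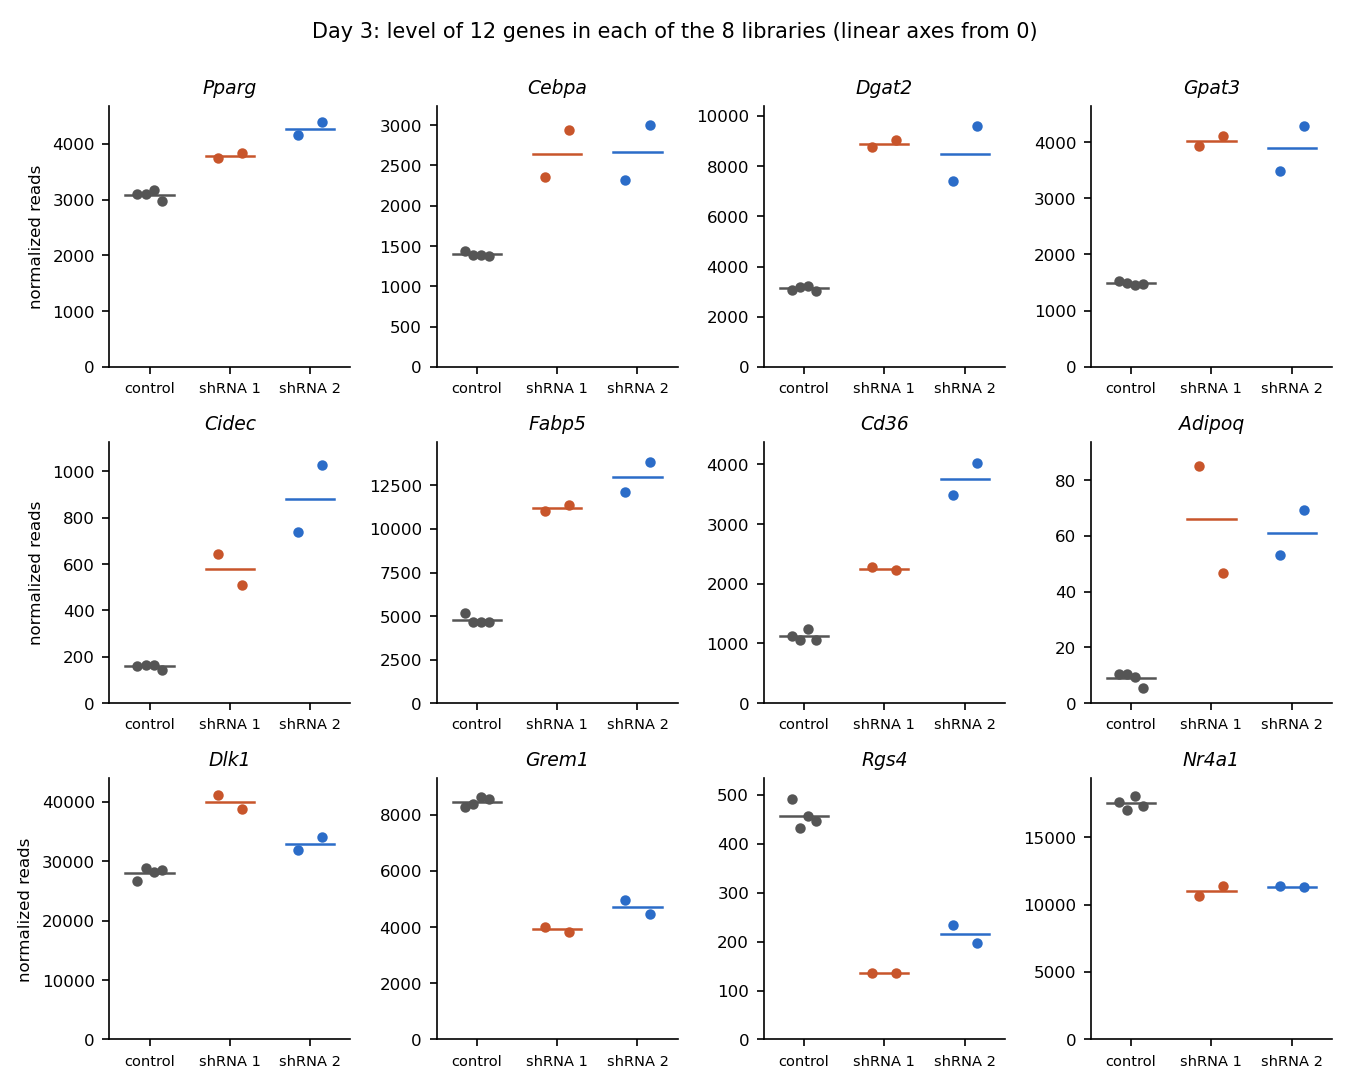
Normalized reads at day 3 of 12 genes, 1 point a library, in control (4), shRNA 1 (2) and shRNA 2 (2) libraries, with a line at each group mean on linear axes from 0. The fat-cell genes Dgat2, Gpat3, Cidec, Fabp5, Cd36 and Adipoq lie above control with both hairpins, Dlk1 does too, and Grem1, Rgs4 and Nr4a1 lie below.

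The upstream windows of the genes that rose in the 4 lists of triglyceride synthesis, droplets, lipolysis and uptake were few: of 23 genes 15 had an entry, with 19 windows. The C/EBP motif was in 2 of these, or 10.5%, and CCAAT in 3, or 15.8%. No match to the PPAR-RXR direct repeat was found, which over all tested genes stood in 0.222% of windows.

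Of 21 tested adipogenic transcription factors 4 rose and 2 fell, shares of 19% and 9.52% beside 14.6% and 12.1% of all tested genes, with a median of 0.02. With shRNA 1 alone 5 were higher and 4 lower (23.8% and 19%, beside 20.6% and 18.7%), and with shRNA 2 alone 7 were higher and 3 lower (33.3% and 14.3%, beside 16.8% and 14.5%). Between the hairpins 6 were higher with shRNA 2 and 2 lower (28.6% and 9.52%, beside 10.6% and 8.94%). Cebpa had 2351, 2938, 2321 and 3005 normalized reads against 1434, 1389, 1390 and 1373, a 1.9-fold rise with the hairpins at 0.88 each. Pparg had 3736, 3832, 4155 and 4387 against 3101, 3102, 3171 and 2981, a 1.3-fold rise (log2 difference 0.37 ± 0.05, SE, limma adjusted p 0.000149). The early factors Cebpb and Cebpd did not pass the test. Cebpb had 18200, 20176, 18272 and 20888 against 18240, 21141, 22504 and 18079 (limma adjusted p 0.727), and Cebpd was at 0.09 with shRNA 1 and -0.43 with shRNA 2 (pooled limma adjusted p 0.421). Ebf1, a factor of the fat lineage, rose 1.23-fold, and Stat5a, a transducer of growth hormone signals, fell to 79.1% of control.

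Genes known to hold back adipogenesis went both ways, with 4 of 19 higher and 6 lower (median -0.07), and without control replicate 2 only 3 were lower. Dlk1, which encodes the preadipocyte factor Pref-1, was higher: 41142, 38786, 31913 and 34006 against 26694, 28852, 28136 and 28545, a 1.3-fold rise, larger with shRNA 1 than with shRNA 2 by 0.27. Hes1, a target of Notch, and Foxo1, a factor restrained by insulin, also rose, 1.22-fold and 1.13-fold. Grem1, a secreted antagonist of BMPs, had 4020, 3828, 4956 and 4456 against 8274, 8383, 8621 and 8579, which is 51% of control (log2 difference -0.95 ± 0.06, SE, limma adjusted p 8.03e-07). Sox9, a factor of mesenchymal progenitors and cartilage, fell to 74.8%, with 1663, 1782, 1923 and 1895 against 2457, 2521, 2354 and 2373. Rgs4 is also of this list.

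Of 10 tested adipokines 3 rose and 1 fell (median 0.20). Adipoq, which encodes adiponectin, had few reads at this stage, with 85.2, 46.6, 53 and 69.2 normalized reads against 10.5, 10.6, 9.42 and 5.32, 7.09-fold on the means of 63.5 ± 17.3 and 8.96 ± 2.49 (SD, n = 4). Cfd, the serine protease adipsin, had 167, 98.4, 126 and 166 against 44.2, 32.8, 50.2 and 50. Retn, which encodes resistin, rose 1.87-fold. Lcn2, the iron-binding lipocalin, was the one that fell, with 8807, 9088, 13707 and 13688 against 19927, 17854, 18660 and 18378. In the list of insulin signalling and glucose uptake 5 of 17 rose and 2 fell (median 0.08). The insulin-responsive glucose transporter gene Slc2a4 had 29.5, 28.6, 15 and 31.8 against 9.47, 3.17, 6.28 and 8.5, and Pik3r1, a regulatory subunit of phosphoinositide 3-kinase, rose 1.29-fold. Grb14, an inhibitor of the insulin receptor, fell to 63.3% of control.

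Targets of the inducers themselves were counted next. Of 17 tested glucocorticoid-induced genes 2 rose and 2 fell (median 0.02), 11.8% each beside 14.6% and 12.1% of all tested genes. Taken alone, shRNA 1 had 6 higher and 2 lower (35.3% and 11.8%, beside 20.6% and 18.7%), and shRNA 2 had 5 higher and 7 lower (29.4% and 41.2%, beside 16.8% and 14.5%). Fkbp5, a classic target, had 26858, 25390, 25884 and 26432 against 26494, 26155, 26173 and 26555 (log2 difference -0.01 ± 0.04, SE, limma adjusted p 0.861). The clock gene Per1 had 3872, 3731, 4026 and 4383 against 4050, 4021, 3798 and 3894, at 0.02 ± 0.05 (SE, limma adjusted p 0.805). Ddit4, an inhibitor of mTORC1, rose 1.42-fold. Among 19 cyclic AMP-responsive genes and effectors 4 rose and 5 fell (median 0.03), 21.1% and 26.3%, with 3 lower without control replicate 1, 2 or 3. The orphan nuclear receptor gene Nr4a1 had 10662, 11353, 11361 and 11308 against 17638, 16983, 18070 and 17307, 63.8% of control (log2 difference -0.63 ± 0.04, SE, limma adjusted p 2.52e-07). Rapgef3, the cyclic AMP-activated exchange factor Epac1, fell to 50.4%, with 120, 112, 194 and 172 against 297, 322, 301 and 269. Crem, a repressor induced by cyclic AMP, rose 1.41-fold.

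**Figure D3:**
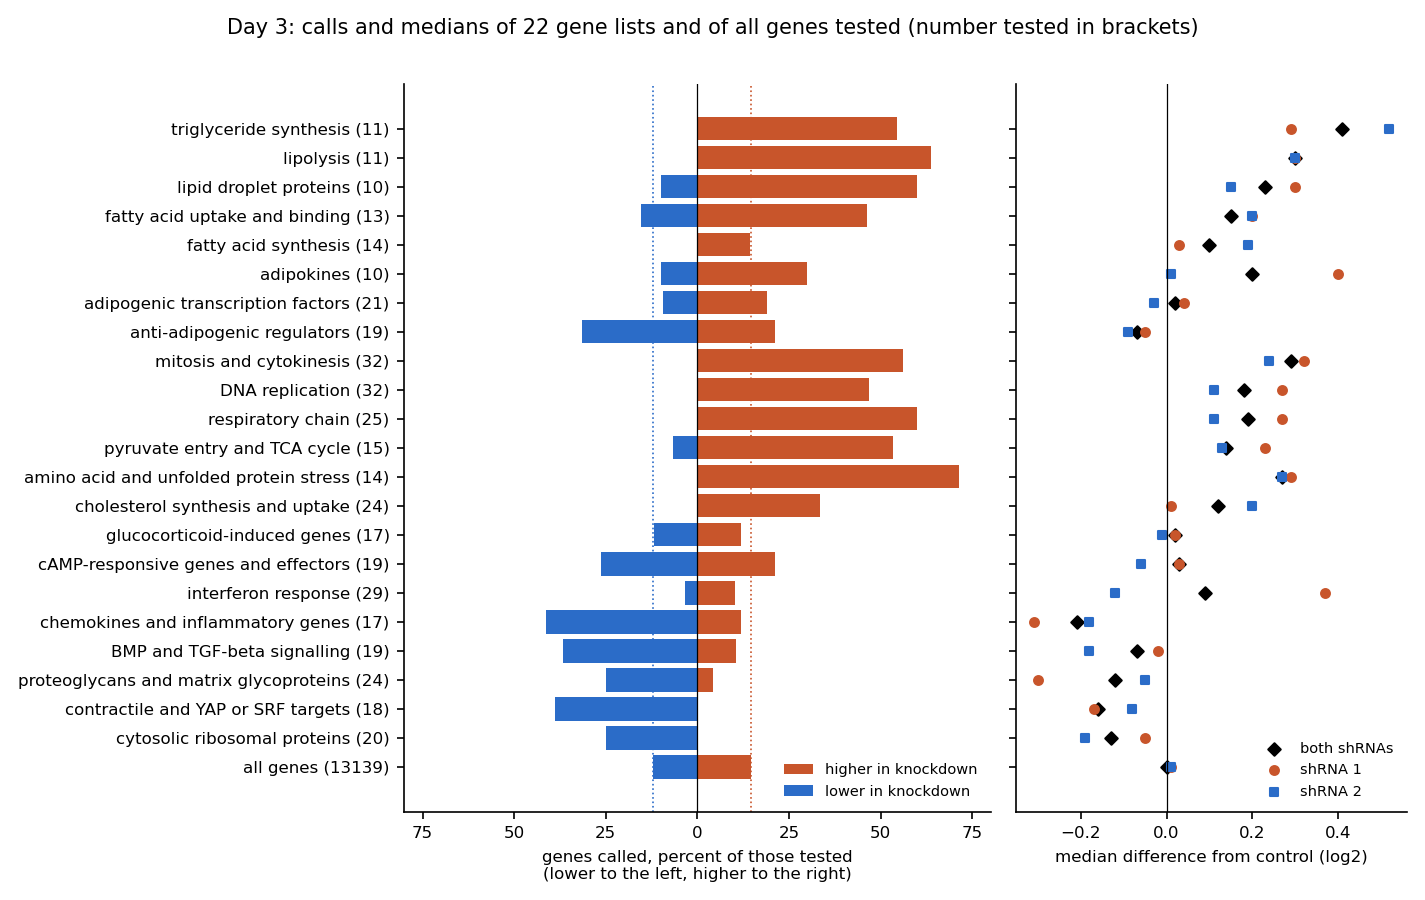
Share of tested genes called higher or lower at day 3 in 22 gene lists and in all tested genes (left, percent; dotted lines at 14.6% and 12.1%), and the median log2 difference from control for both hairpins together and for each alone (right). Triglyceride synthesis, lipolysis, stress and mitosis lie to the right of 0 with both hairpins, contractile genes to the left, and the interferon and proteoglycan medians differ between hairpins.

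Many genes of dividing cells rose, and others did not pass the test. Of 32 tested mitosis genes 18 rose (56.2%, median 0.29), and of 32 DNA replication genes 15 rose (46.9%, median 0.18), beside 14.6% of all tested genes. Mki67, which encodes the proliferation marker Ki-67, had 1673, 1699, 1957 and 2095 normalized reads against 1399, 1199, 1448 and 1418, a 1.36-fold rise (log2 difference 0.42 ± 0.08, SE, limma adjusted p 0.00135). Bub1, a kinase of the spindle checkpoint, had 539, 610, 508 and 511 against 413, 277, 363 and 405, and Hmmr, a spindle protein, 422, 381, 369 and 382 against 293, 218, 276 and 258. Both rose 1.49-fold, and Ect2, which starts cytokinesis, 1.45-fold. For replication genes 25 of 32 were higher with shRNA 1 (78.1%, beside 20.6% of all tested genes), and with shRNA 2 9 were higher and 1 lower (28.1% and 3.12%, beside 16.8% and 14.5%). Of the 32 genes 11 were lower with shRNA 2 than with shRNA 1 when the hairpins were tested against each other, beside 8.94% of all tested genes lower and 10.6% higher in that test. Mcm5, a subunit of the replicative helicase, had 1927, 1969, 1886 and 1862 against 1755, 1604, 1571 and 1760. Without control replicate 3 the number of replication genes that rose dropped to 9 and Mcm5 was no longer called (limma adjusted p 0.0564, over the 8 fits 0.0118 to 0.0564).

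Of 19 tested G1 genes 4 rose and 3 fell, or 21.1% and 15.8%. Ccne2, a cyclin of entry into S phase, had 1129, 1022, 792 and 710 against 585, 583, 664 and 635, a 1.48-fold rise. Ccnd1, the cyclin that answers growth factors, fell to 72% of control, with 4616, 3823, 4017 and 4162 against 5820, 5576, 5811 and 5861. Upstream, the replication and mitosis genes that rose had 30 windows for 28 of the 33 genes, and 24 of these, 80%, held CCAAT, the box seen 3 times in the Mki67 window shown above. TTTCCCGC was in 2 of them and TTTGGCGC in 1, that of Mcm5.

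Among nuclear genes of mitochondrial metabolism, the lists differed in how many members rose. Of 25 respiratory chain genes 15 rose (median 0.19), of 15 genes of pyruvate entry and the tricarboxylic acid cycle 8 rose and 1 fell (median 0.14), and of 16 genes of branched-chain amino acid breakdown 4 rose and 2 fell (median 0.06), the last 25% and 12.5%, beside 14.6% and 12.1% of all tested genes. Idh3a, a subunit of the mitochondrial isocitrate dehydrogenase, had 3997, 3808, 3902 and 3801 against 2480, 2298, 2469 and 2366, a 1.61-fold rise (log2 difference 0.66 ± 0.04, SE, limma adjusted p 2.26e-07). Cycs, which encodes cytochrome c and has near-identical copies that leave its counting uncertain, had 6924, 6911, 6877 and 6603 against 4221, 3879, 4165 and 3897. Dbt, a subunit of the branched-chain ketoacid dehydrogenase, had 764, 794, 782 and 811 against 457, 494, 463 and 470. The respiratory chain calls were mostly small and depended on single libraries, with 8 left without control replicate 2 or 4 and 9 without shRNA 1 replicate 1. Their number was 9 with no filter on low values and 8 without the trend and robust fit. Transcripts of the mitochondrial genome had summed normalized reads of 298662 to 349442 in knockdown and 330160 to 396773 in control libraries. The coactivator genes Ppargc1b and Ppargc1a rose 2.08-fold and 1.45-fold. In fatty acid oxidation 7 of 19 rose and 1 fell (median 0.05): Eci1, an isomerase of that pathway, rose 1.35-fold, and Cpt1a, which admits fatty acids to mitochondria, fell to 76.1%.

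Of 14 tested genes of amino acid and unfolded protein stress 10 rose (median 0.27). Xbp1, a factor of the unfolded protein response, had 7140, 6635, 7248 and 7633 normalized reads against 4887, 4834, 4869 and 4827, a 1.48-fold rise (log2 difference 0.54 ± 0.04, SE, limma adjusted p 2.09e-06). Trib3, a pseudokinase induced by ATF4, had 4299, 4448, 4326 and 4587 against 3099, 3284, 2995 and 2848. Herpud1, which takes part in the removal of misfolded proteins, rose 1.34-fold. In cholesterol synthesis and uptake 8 of 24 rose (median 0.12), 5 without control replicate 2. Against control, 12 were higher and 1 lower with shRNA 2 (50% and 4.17%, beside 16.8% and 14.5% of all tested genes), and 6 higher and 4 lower with shRNA 1 (25% and 16.7%, beside 20.6% and 18.7%). Tested between the hairpins, 8 of the 24 were higher with shRNA 2 and 0 lower, beside 10.6% and 8.94%. Cyp51, the lanosterol demethylase, had 1491, 1387, 1765 and 2022 against 1060, 1157, 1119 and 1120, above control with both.

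Of 18 genes of the contractile skeleton and targets of YAP or SRF 7 fell (median -0.16). Acta2, the smooth muscle actin of myofibroblasts, had 169, 151, 154 and 164 against 283, 257, 259 and 273, 59.5% of control with the hairpins at -0.64 and -0.65. Cnn2, a calponin, had 889, 683, 1104 and 897 against 1512, 1539, 1485 and 1494. Srf, the factor that drives such genes, fell to 77.8%. In BMP and TGF-β signalling 7 of 19 fell and 2 rose (median -0.07), and beside Grem1 the ligand gene Tgfb2 fell, with 1064, 974, 1486 and 1518 against 2119, 2076, 2074 and 2144. Of 18 Wnt ligands, receptors and modulators 3 rose and 5 fell (median 0.03), 3 of them without control replicate 4, and Wnt11, a ligand, rose 2.17-fold, with 29.5, 38.1, 51 and 69.2 against 20, 18, 24.1 and 24.5. Of 9 genes of the IGF axis H19 was the only one that rose, and 2 fell, among them Igfbp6, an IGF-binding protein, at 63.1% of control. Without shRNA 2 replicate 1 or 2, 2 of the IGF genes rose and 3 fell.

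Matrix genes differed between the hairpins. Of 24 tested proteoglycan and matrix glycoprotein genes 1 rose and 6 fell (median -0.12), or 4.17% and 25%. With shRNA 1 alone 17 fell and 2 rose (70.8% and 8.33%, beside 18.7% and 20.6% of all tested genes), and with shRNA 2 alone 7 fell and 11 rose (29.2% and 45.8%, beside 14.5% and 16.8%). Tested against each other, 16 of the 24 were higher with shRNA 2 and 0 lower, beside 10.6% and 8.94% of all tested genes. Prelp, a small leucine-rich proteoglycan, was lower with both, at 228, 214, 335 and 358 against 748, 636, 710 and 656. Thbs1, which encodes thrombospondin 1, fell to 60.3% of control and Abi3bp, an extracellular protein, to 53%. Dcn, which encodes decorin, had 11879, 10988, 20910 and 18920 against 27015, 26903, 28740 and 29232. The Dcn call (limma adjusted p 0.0277) was lost without any 1 of the controls or without shRNA 1 replicate 1, with adjusted p of 0.00873 to 0.0675 over the 8 fits. Lum, which encodes lumican, lay on opposite sides of control, with 164 and 107 for shRNA 1, 392 and 430 for shRNA 2, and 249, 285, 309 and 377 in control.

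Of 20 interstitial collagens and their processing enzymes 2 rose and 3 fell (median 0.04). With shRNA 1, 6 were higher and 9 lower (30% and 45%), with shRNA 2, 10 higher and 5 lower (50% and 25%), and tested between the hairpins 12 of the 20 were higher with shRNA 2 and 3 lower (60% and 15%). Col3a1, a fibrillar collagen, had 71660 and 70011 for shRNA 1, 99680 and 105429 for shRNA 2, and 76516, 85268, 83862 and 88387 in control, so that the control libraries lay between the hairpins. The fibronectin gene Fn1 had the same order, at -0.30 and 0.12. Lox, which crosslinks collagen, fell with both, to 70.5% of control. With shRNA 1 alone all 7 fibroblast and preadipocyte markers tested fell (median -0.52), with shRNA 2 alone 2 rose and 3 fell (median -0.04), and 6 of the 7 were higher with shRNA 2 than with shRNA 1. In the pooled test 2 fell, Thy1 with 2383, 2409, 2578 and 2747 against 3418, 3542, 3481 and 3486, and Ly6a with 2225, 2070, 2402 and 2305 against 3844, 3260, 3567 and 3585. Without shRNA 2 replicate 1, 4 of them fell. The receptor gene Pdgfrb had 1295 and 1369 for shRNA 1 and 2720 and 2828 for shRNA 2, on either side of controls from 2221 to 2364.

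Interferon-response genes differed between the hairpins as well. Of 29 tested, 3 rose and 1 fell when the hairpins were pooled (median 0.09). With shRNA 1 alone 15 rose (51.7%, beside 20.6% of all tested genes; median 0.37), and with shRNA 2 alone 1 rose and 7 fell (3.45% and 24.1%, beside 16.8% and 14.5%; median -0.12). Tested between the hairpins, 18 of the 29 were lower with shRNA 2 (62.1%, beside 8.94%). Ifit1, an RNA-binding antiviral protein, had 260 and 315 with shRNA 1, 107 and 105 with shRNA 2, and 66.3, 77.2, 55.5 and 75.5 in control. Its pooled call (log2 difference 1.09 ± 0.33, SE, limma adjusted p 0.044) was lost without any 1 of the controls or without shRNA 1 replicate 1, with adjusted p of 0.0175 to 0.106 over the 8 fits. Gbp2, a GTPase induced by interferon, had 495 and 453, then 218 and 173, with controls from 197 to 217, at 1.08 with shRNA 1 and -0.08 with shRNA 2. The pooled list count was 2 or fewer without control replicate 1, 3 or 4, and 7 without shRNA 2 replicate 2. Without the trend and robust fit 2 genes were called. The part of the hairpins themselves was not tested.

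Among 17 chemokine and inflammatory genes 2 rose and 7 fell (median -0.21). The chemokine gene Cxcl10 was one that rose, with 277, 263, 125 and 102 normalized reads against 65.2, 49.7, 44 and 46.8. Ptgs2, which encodes cyclooxygenase 2, was the other, with 1392, 1353, 1391 and 1370 against 624, 756, 790 and 730 and the hairpins at 0.87 and 0.88. Of 20 ribosomal protein genes 5 fell (median -0.13), 4 with shRNA 1 alone and 16 with shRNA 2 alone (20% and 80%, beside 18.7% and 14.5% of all tested genes). That count ran from 2 without control replicate 1, through 3 without control replicate 3 or 4, to 11 without shRNA 1 replicate 1. Of 15 p53 targets 3 rose and 4 fell (20% and 26.7%), and of 15 basement membrane genes 3 rose (20%), where 14.6% of all tested genes rose and 12.1% fell. Without shRNA 2 replicate 1, 4 basement membrane genes rose and 2 fell.

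The hairpins were then tested against each other. The difference is between the 2 libraries of each hairpin, while its error was estimated over all 8 libraries, controls included. Of 13139 genes 2572 were called, 1398 higher with shRNA 2 and 1174 lower. Without shRNA 1 replicate 1 the count was 1626. Ren1, which encodes renin, had 23.8 and 33.9 with shRNA 1, 161 and 291 with shRNA 2, and 28.4, 32.8, 46 and 42.5 in control. The angiotensin receptor gene Agtr2 had 28.4 and 47.6, then 183 and 248, with controls from 64.5 to 80.8, and the kinesin gene Kif26b 365 and 277, then 1067 and 1132, with controls from 501 to 639. Ren1 stood apart with shRNA 2 alone, while Agtr2 and Kif26b were below control with shRNA 1 and above it with shRNA 2. In the other direction Cytip, an adaptor of leukocytes that binds cytohesins, had 585 and 497 with shRNA 1, 101 and 101 with shRNA 2, and 69.4, 41.3, 58.6 and 65.9 in control. Ostn, which encodes the secreted peptide osteocrin, had 207 and 242, then 47 and 58.2, with controls from 61.7 to 98.9. Pdzd7 was 1.67 lower with shRNA 2 than with shRNA 1, Rnf128, a ubiquitin ligase, 1.42 lower and Gbp6 1.39 lower, the latter with a near-identical copy, Gbp10. Pdk4, a mitochondrial kinase that inhibits pyruvate dehydrogenase, had 2620 and 2936, then 1284 and 1327, with controls from 2713 to 2875, so that it was low with shRNA 2 only. Among the 17 glucocorticoid-induced genes, 7 were lower and 3 higher with shRNA 2 than with shRNA 1 (41.2% and 17.6%, beside 8.94% and 10.6%). Some day 3 list counts grew by more than 1.5 times when the hairpins were fitted as separate groups and averaged, from 4 to 11 glucocorticoid-induced genes, from 4 to 14 of the interferon list, from 7 to 16 proteoglycans, from 5 to 13 collagens and their enzymes, from 2 to 7 fatty acid synthesis genes and from 8 to 13 cholesterol genes. The same fit took adipogenic transcription factors from 6 to 11, adipokines from 4 to 8, G1 genes from 7 to 13, chemokines and inflammatory genes from 9 to 14, ribosomal protein genes from 5 to 14, basement membrane genes from 3 to 11 and IGF genes from 3 to 6.

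**Figure D4:**
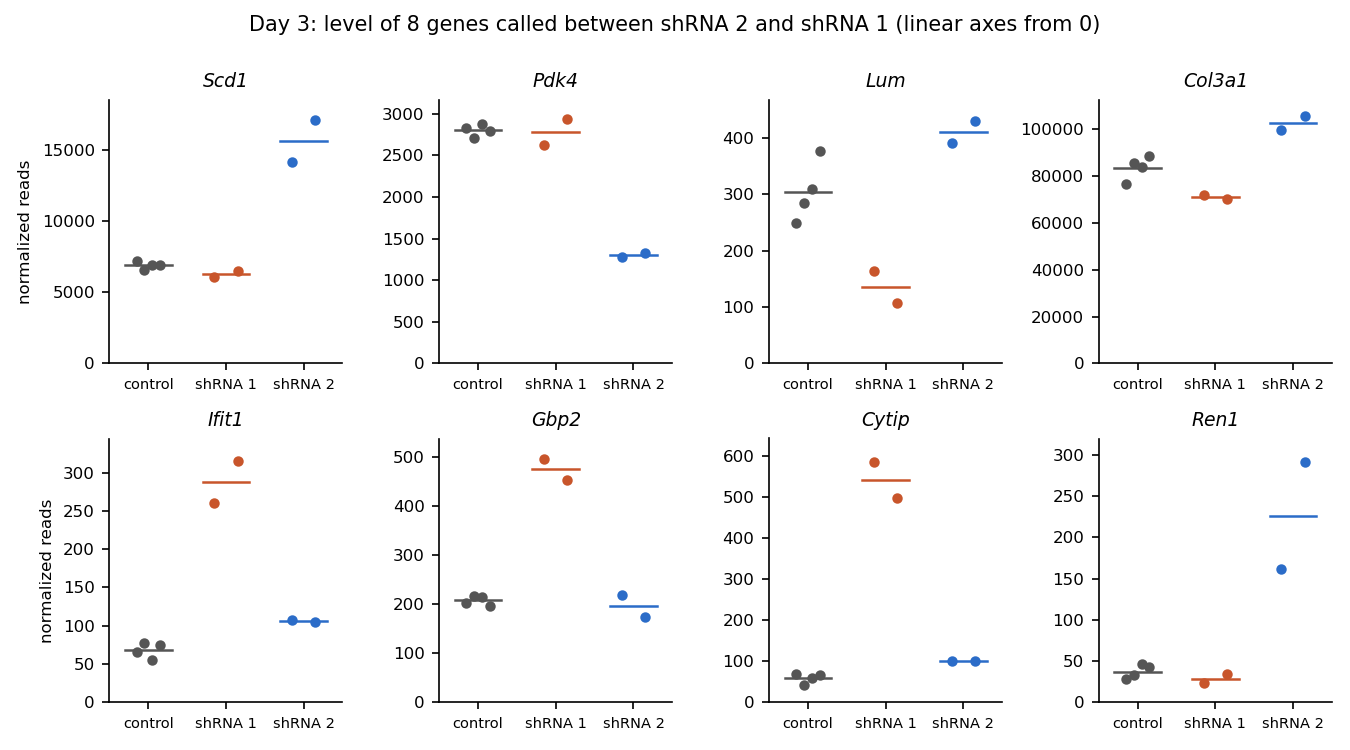
Normalized reads at day 3 of 8 genes called between the hairpins, 1 point a library, in control (4), shRNA 1 (2) and shRNA 2 (2), with a line at each group mean on linear axes from 0. Scd1 and Ren1 are high with shRNA 2 only, Ifit1, Gbp2 and Cytip are highest with shRNA 1, Pdk4 is low with shRNA 2 only, and the controls of Lum and Col3a1 lie between the hairpins.

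To ask whether the day 3 difference was there before induction, the knockdown difference at day 3 was tested against that at day 0, each against the controls of its own day. Of 13571 genes 892 were called, 501 with a higher difference at day 3 (3.69%) and 391 with a lower one (2.88%). That split depended on the scaling, with 401 higher and 545 lower after rescaling to equal totals. All 7 adipocyte markers tested were among the higher ones under both scalings, as were 7 of 12 triglyceride synthesis genes and 8 of 14 stress genes. Of 18 contractile genes 4 had a lower difference at day 3, and 8 after rescaling. Adgrf5 was at -0.16 on day 0 and the difference between the days was 2.65 (limma adjusted p 2.86e-09). Cidec was at -0.04 on day 0 and differed between the days by 2.05 (limma adjusted p 1.07e-07). With voom on rebuilt reads the Cidec difference was 2.94 and did not pass (adjusted p 0.331).

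Some genes lay on opposite sides of control on days 0 and 3. Ptgs2 was at -0.97 on day 0 (limma adjusted p 0.0663) and 0.87 on day 3, a difference of 1.84 (limma adjusted p 0.000165). Rasgef1b, an exchange factor for Ras-family proteins, was at -0.49 and 1.41, with 1119, 1213, 1165 and 1255 reads at day 3 against 419, 439, 384 and 418. Trib3 was at -0.50 and 0.51. Rgs4 went the other way, from 0.17 on day 0 (limma adjusted p 0.478) to -1.26, a difference of -1.43 (limma adjusted p 9.85e-05). Some genes that fell at day 3 had a similar difference on day 0: Lcn2 was at -0.73 on both days, Nr4a1 at -0.55 and -0.63, and Steap4 at -1.08 and -1.16. Whether these day 0 differences passed a test is not given here. Mki67 was at 0.34 on day 0 (limma adjusted p 0.483) and 0.42 on day 3, and the difference of 0.08 did not pass (limma adjusted p 0.932).

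Against day 7, the next time point, 3137 genes were called, 1754 with a higher knockdown difference at day 7 (12.9%) and 1383 with a lower one (10.2%). Rescaled to equal totals, 1464 were higher and 1768 lower. The difference was higher at day 7 for 6 of 7 adipocyte markers and 11 of 13 lipolysis genes. Of 12 triglyceride synthesis genes it was higher for 6, of 13 fatty acid uptake genes higher for 5 and lower for 1, and of 10 droplet genes higher for 6 and lower for 1. Cebpa went from 0.88 to 1.99 (limma adjusted p 9.19e-07 for the difference), Lipe from 0.78 to 2.06 and Hcar2 from 1.13 to 3.07. Dgat2, from 1.42 to 1.93, did not pass (limma adjusted p 0.0654). Nor did Scd3, at 1.60 on day 3 and 1.51 on day 7 (limma adjusted p 0.836), or Gpd1, at 1.65 and 1.78 (limma adjusted p 0.867). Of 25 respiratory chain genes 24 had a higher difference at day 7, and 23 after rescaling. Scd1 went from 0.50 to 1.92, a difference of 1.42 (limma adjusted p 0.00141).

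Other day 3 differences were lower or on the other side of control at day 7. The difference of Nr4a1 was -0.63 at day 3 and 0.26 at day 7 (limma adjusted p 0.00142 for the change), and that of Dlk1 was 0.36 and -0.24 (limma adjusted p 0.0002). H19 went from 1.46 to 0.33, with control means of 14.3 normalized reads on day 0, 242 on day 3 and 3.01 on day 7. Of the 29 interferon genes 26 had a lower difference at day 7, led by Ifit1 at 1.09 on day 3 and -2.57 on day 7. The control means of Ifit1 were 4126 ± 723 normalized reads on day 0, 68.6 ± 9.99 on day 3 and 2168 ± 321 on day 7 (SD, n = 4), the lowest of these being day 3.

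**Figure D5:**
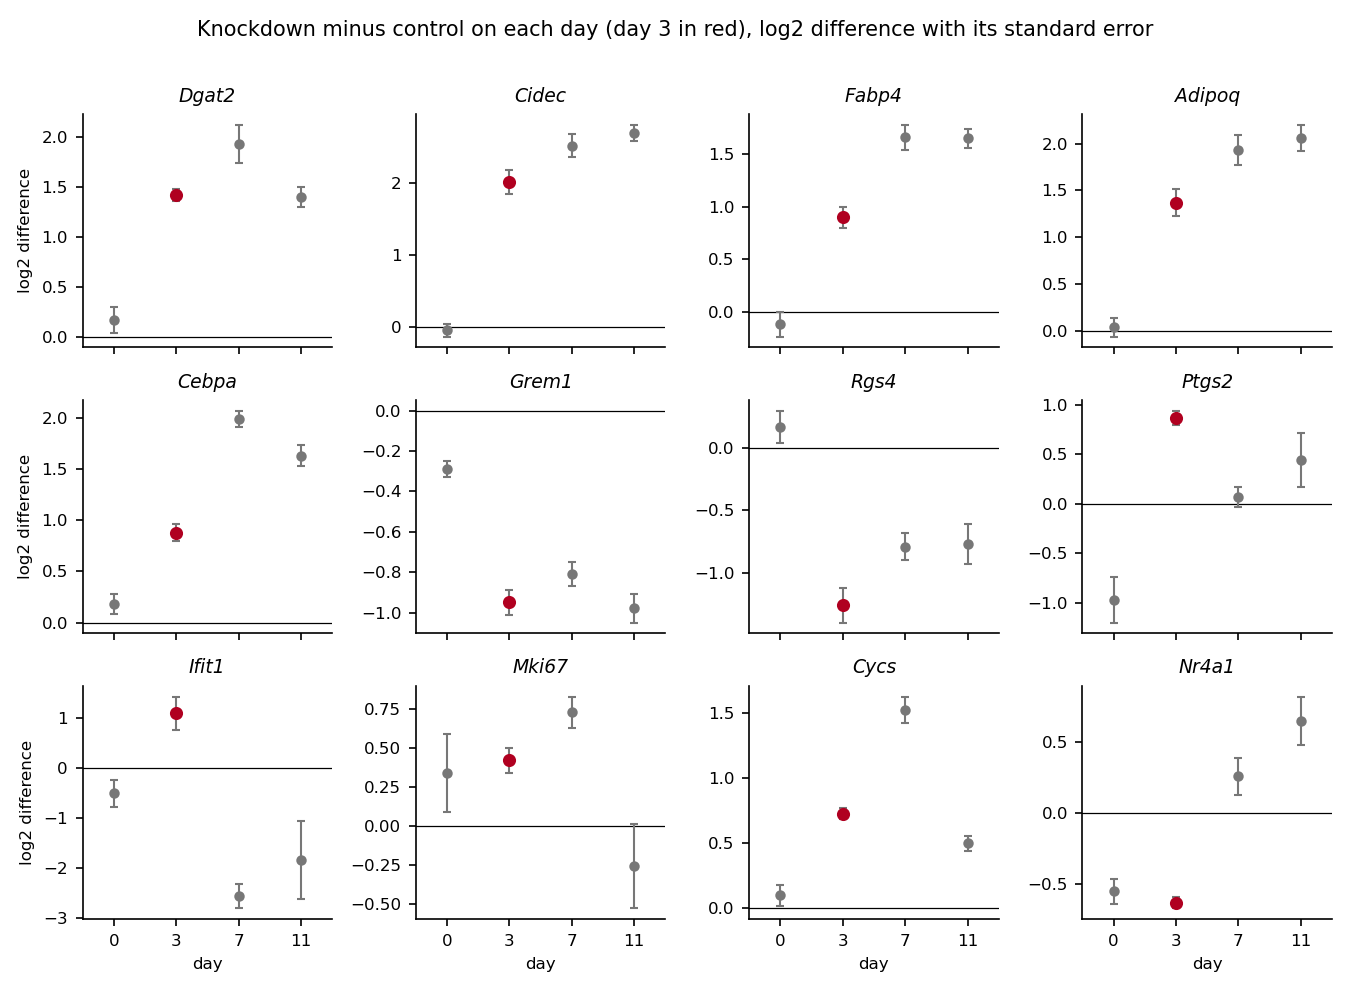
Log2 knockdown minus control with its standard error for 12 genes on days 0, 3 (red), 7 and 11, each day against its own 4 controls. Dgat2, Cidec, Fabp4, Adipoq, Cebpa and Cycs are near 0 on day 0 and above it from day 3, Grem1 is below 0 on all 4 days, and Ptgs2, Nr4a1 and Ifit1 change side between days.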

How the data were processed

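Column-purified RNA went into Illumina TruSeq libraries, per the labels' protocols. The genome build and the strand use of counting are not given in the sources used here; the submitters' processing notes name TopHat2 2.1.0, Bowtie2 2.2.6, SAMtools 1.3.1 and HTSeq 0.6.1. The authors deposited 1 log2 value per gene and library for 20560 genes, in the form of a regularized log transform, as the values show. Inverting that form gave whole reads: 99.2% of 657920 values came within 0.1 of one, where 20% would by chance. Normalized reads are these divided by size factors. Groups came from sample titles.

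Limma 3.58.1 in R 4.3.3 was fitted to the deposited log2 values, with a mean-variance trend, robust empirical Bayes and Benjamini-Hochberg adjustment, over genes with at least 10 on the linear scale in at least 4 libraries. The fit was also run on simulated data in which the hairpins did not differ, so that run does not cover the spread between hairpins. Day 3 used its 8 libraries, pooled and in 3 hairpin groups; comparisons between days used all 32.

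The members, lists and tests were chosen with earlier results of these data known. Genes named are Zbtb9, the 10 largest rises and falls without overlap and with a mean of at least 50, the 5 largest in each direction between hairpins and between days, and members of the lists. Lists have counts and medians, with no set test. Positions are from GENCODE M21 and upstream sequences from RefSeq. Alternatives were other filters, pseudocounts, scalings and fits, voom on rebuilt reads, a replicate block and leaving out single libraries. Same-numbered libraries were not paired by the labels.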

Additional observations from a re-analysis of the deposited data

Results flagged for a closer look

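Among 262 groups of 4 libraries of 131 genes, 7 held 1 library far from the other 3, by Dixon's test on the gap over the group's range. Chance alone gives about 1 in 20, and 7 of 262 is fewer than that. The knockdown groups mix both hairpins, which the test does not allow for. In control these were replicate 2 of Col6a1, highest at a ratio of gap to range of 0.951, replicate 1 of Fabp5, highest at 0.950, replicate 4 of Ghrh, highest at 0.951, and replicate 3 of Ppargc1b, lowest at 0.887. In knockdown they were shRNA 2 replicate 2 of Cycs, lowest at 0.859, shRNA 1 replicate 2 of Mx1, highest at 0.912, and shRNA 1 replicate 1 of Nr4a1, lowest at 0.925. For Mx1 this library had 32.8 normalized reads where the other 3 had 4.54, 5 and 5.49.

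The knockdown difference at day 3 was above that at day 0 by 2.65 for Adgrf5, 2.11 for Cxcl10, 2.05 for Cidec, 1.91 for Rasgef1b and 1.84 for Ptgs2, tested by limma as the difference between the days. It was below that at day 0 by -1.43 on the log2 scale for Rgs4, -1.40 for Etv4, -1.12 for Nav2, -1.08 for Prl2c2 and -0.94 for Ptx3. Etv4, a factor of the ETS family, had 39.7, 32.8, 5 and 8.78 normalized reads at day 3 against 72.6, 53.9, 54.4 and 48.9. Its call between the days (limma adjusted p 0.0376, 0.0182 to 0.0836 over the 8 fits) was lost without control replicate 1, 2 or 3 or either shRNA 2 library. Reads of Prl2c2 cannot be told from those of a near-identical copy, Prl2c3, and its call (limma adjusted p 0.0367, 0.0405 to 0.0765 over the 8 fits) was lost without control replicate 1, 2 or 3 or either shRNA 1 library.

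Between days 3 and 7 the difference was higher at day 7 by 3.37 for Krt8, 3.30 for B3gnt6, 3.16 for Ghrh, 2.94 for Pdzk1 and 2.81 for Cyb561. Krt8 and B3gnt6 were under the filter at day 3, and Ghrh had 0 to 1.14 normalized reads in knockdown and 0 to 2.13 in control libraries there. Cyb561, a cytochrome, was clearly read at day 3, with 142, 156, 153 and 143 in knockdown and 285, 190, 231 and 293 in control, a difference of -0.67, and was at 2.14 on day 7. The changes were -3.66 for Ifit1, -3.55 for Ifit3, -3.23 for Ifit3b, -3.01 for Oasl2 and -2.57 for Mx1, all of the interferon list. Ifit3 and Ifit3b are 97.8% identical over 1700 bases, so their reads may be split between them.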

How the results depend on the processing

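The day 3 knockdown count of 3506 became 5311 (2812 higher, 2499 lower) with hairpins fitted as separate groups and averaged. The replicate numbers do not pair the libraries: same-numbered libraries of different arms had correlations of deviations of 0.00 to 0.10. With a replicate block 845 genes were called, 842 of them among the 3506, and the counts were 4685 for shRNA 1, 3648 for shRNA 2, 2813 between hairpins, 758 against day 0 and 2976 against day 7. At day 3 only the control arm has replicates 3 and 4. In the day 3 fits the block therefore takes those libraries out of the comparison between arms. The count of 2572 between hairpins became 1710 with no filter on low values and 1454 without the trend and robust fit. With hairpins as separate groups on each day, 2484 genes were called between days 0 and 3 and 4961 between days 3 and 7. Beyond how these fits are built, the causes were not tested.

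Leaving out 1 library gave 2589 (without control replicate 4) to 3885 calls for the pooled knockdown, 3768 to 5322 for shRNA 1, 2971 to 4050 for shRNA 2, 1626 to 2593 between hairpins, 682 to 875 against day 0 and 2649 to 3045 against day 7, and for Zbtb9 a log2 difference of -0.27 to -0.13. Of 94 named genes called at day 3, 90 kept the call without each library in turn, the exceptions being Cp, Dcn, Ifit1 and Mcm5, and 32 lost it under the replicate block. No named gene that was called changed direction in the alternatives run. Rescaling to equal totals changed the share of higher calls from 54.7% to 53.2% at day 3, from 56.2% to 42.4% against day 0 and from 55.9% to 45.3% against day 7. With voom on rebuilt reads the changes between days 3 and 7 of B3gnt6 (adjusted p 0.288), Krt8 (0.396), Ifit3 (0.36), Ifit3b (0.405), Mx1 (0.145) and Oasl2 (0.161) no longer passed, and with no filter those of Etv4 (0.0603) and Prl2c2 (0.0568) between days 0 and 3 did not. Genes with few reads, such as Zbtb9, are measured with a large counting error.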
